A study of Mus musculus with 9 samples.

Results

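The genes described here encode the enzymes that build purine and pyrimidine nucleotides de novo: *Ppat*, *Gart*, *Paics*, *Pfas*, *Adsl*, *Atic* and *Impdh2* for purines, and *Cad*, *Dhodh* and *Umps* for pyrimidines. They were chosen by name, and all 10 were found among the 55487 genes of the deposited expression table. Their expression was followed in RNA-seq libraries of CD4+ T cells, which were isolated by negative selection from the spleens of wild-type C57BL/6 (*Trail-r*+/+) mice, female and 6 to 7 weeks old. There were 3 groups of 3 libraries. The cells of the first group were kept in culture medium, and the sources used here do not give the time. Those of the second received 3 µg/ml of an Ab against CD3 and 2 µg/ml of one against CD28, which engage the T cell receptor (TCR) complex and a costimulatory receptor, for 24 h. Those of the last received both Abs for 24 h in the presence of TRAIL, a member of the tumor necrosis factor superfamily, at 10 µg/ml. These groups are called medium, stimulated and TRAIL-treated below. No group had TRAIL without the Abs, and cells that lack TRAIL-R were not analysed here. Nothing states that the 3 libraries of a group came from separate mice or cultures, so the p-values measure the spread between these libraries, which may be technical.

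Purines and pyrimidines are the bases of DNA, RNA and of the nucleotides that carry energy and activate sugars and lipids. The purine ring is assembled step by step on phosphoribosyl pyrophosphate (PRPP) until inosine monophosphate (IMP) is made, whereas the pyrimidine ring is made first and then joined to PRPP to give uridine monophosphate (UMP). Resting lymphocytes are known to cover much of their need by salvage of free bases and nucleosides, and proliferating lymphocytes are known to depend on de novo synthesis, the reason why inhibitors of IMP dehydrogenase and of dihydroorotate dehydrogenase are used to suppress immune responses.

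On the mouse genome build GRCm38, the loci given with the deposited values matched those of GENCODE release M21 for all 10 genes. *Ppat* lay on chromosome 5 at 76913249 to 76951578 on the minus strand and *Paics* next to it at 76951307 to 76967509 on the plus strand, so that the pair stood head to head and shared 272 bases of annotated exon. *Cad* was also on chromosome 5, at 31054780 to 31078479 on the plus strand. *Gart* (91621186 to 91646952) and *Umps* (33954782 to 33967038) were on the minus strand of chromosome 16. *Pfas* was on chromosome 11 at 68985697 to 69008460 on the minus strand, *Adsl* on chromosome 15 at 80948490 to 80970946 on the plus strand, and *Atic* on chromosome 1 at 71557150 to 71579631 on the plus strand. *Impdh2* was on chromosome 9 at 108560286 to 108565584 on the plus strand and *Dhodh* on chromosome 8 at 109591343 to 109608673 on the minus strand. The strand setting of the authors' counting is not given in the sources used here, so reads from shared exons cannot be assigned. Besides *Ppat* and *Paics*, the overlaps were of *Gart* with *Gm15964* (1014 bases, partner at 0.289 to 0.757 TPM), *Umps* with *Gm15829* (213 bases, partner at most at 0.181 TPM), *Impdh2* with *Ndufaf3* (48 bases, partner at 7.79 to 15.2 TPM) and *Pfas* with *Mir3062* (39 bases).

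Because Myc and its relatives are known to bind the E-box CACGTG, and Myc was among the genes measured, the letters of this motif were looked for around the start of each gene. RefSeq promoter windows of build GRCm38.p6, running from 250 bases before to 50 bases after the start, were on hand for 8 of the 10 genes, all but *Pfas* and *Dhodh*. An E-box, which reads the same on both strands, occurred in 3 of the 8 windows and in 7.15% of all 32851 windows of the same length. The stretches that hold it are given 5′ to 3′ with 12 bases on each side and the E-box in capitals. Position -1 is the base before the RefSeq start, and by GENCODE M21 the E-box of *Impdh2* (-110 to -105) lay in the UTR of the gene itself and that of *Paics* (-203 to -198) in the UTR of *Ppat*. The E-box of *Atic* (-7 to -2) began 1 base before the annotated start of *Atic* and otherwise lay in its UTR.
*Atic*, chr1:71557137-71557166, plus strand: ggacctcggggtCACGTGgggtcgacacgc
*Paics*, chr5:76951087-76951116, plus strand: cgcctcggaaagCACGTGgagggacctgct
*Impdh2*, chr9:108560314-108560343, plus strand: gagctcgataagCACGTGgttacccagctc

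The cAMP response element TGACGTCA, likewise a palindrome, occurred in 1 of the 8 windows, that of *Umps* at positions 4 to 11 after the start, against 1.79% of all windows. It lay in the UTR of *Umps*, where an exon of *Gm15829* overlaps, and no window of the 8 held both motifs. The 30 bases around it are given with the element in capitals.
*Umps*, chr16:33967017-33967046, minus strand: ggacttctgggTGACGTCAcgggccccaag
A match of letters is a description of the window and not a binding site.

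The values are TPM, a measure of transcript abundance in which reads are divided by gene length and each library is scaled to the same total, so that levels can be compared between genes. TPM keeps no read totals, and the depth of the libraries and the counting error are therefore unknown. Groups were compared with limma on log2(TPM + 1), all 9 libraries in one fit of 15536 genes. A gene was called higher or lower at a Benjamini-Hochberg adjusted p below 0.05 over all these genes together with a log2 fold change of at least 1. All 10 genes of the pathway passed the filter of 1 TPM in at least 3 libraries, and none was near it, since their lowest value in any library was 8.63 TPM.

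TCR stimulation was accompanied by higher levels of the pathway as a whole. The summed TPM of the 10 genes was 461 to 491 in medium (0.0461 to 0.0491% of all TPM), 1172 to 1268 after stimulation (0.117 to 0.127%) and 390.1 to 447 with TRAIL (0.0390 to 0.0447%). Relative to medium, 9 of the 10 genes were called higher in stimulated cells and none lower, where 12.4% of all genes tested were called higher and 19.5% lower (31.9% in either direction). In TRAIL-treated against stimulated cells, 9 of the 10 were called lower and none higher, against 14.3% of all genes called lower and 16.6% higher (30.9% in either direction). The all-gene split by direction turned with the scaling: in the first comparison 15.7% were called higher and 14.4% lower under quantile normalization, and in the second 14.2% higher and 15% lower. Median-of-ratios scaling gave 13.9% higher and 17.8% lower, and 18.4% higher and 12.6% lower. The gene of the 10 not called in either comparison was *Dhodh*. By the adjusted p alone all 10 were higher in the first comparison, as were 28.8% of all genes, and all 10 lower in the second, as were 33.5%. The libraries of the 2 groups did not overlap for any of the 10, which held for 29.9% of all genes in the first direction and 34.9% in the second. None of the 10 was called in TRAIL-treated against medium cells, a comparison in which 2.49% of all genes were called higher and 2.13% lower (4.62% in all). Under median-of-ratios scaling and quantile normalization, which also called none of the 10 there, 3.44% and 3.39% of all genes were called higher and 1.2% and 1.41% lower. Of the 10, 6 had an unadjusted p below 0.05 there, as did 44% of all genes. The median log2 fold change of the 10 genes was 1.55 in the first comparison (all genes, -0.15), -1.60 in the second (all genes, 0.011) and -0.33 in the third (all genes, -0.18). The first and second comparison share the stimulated libraries, so they are not independent of each other.

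**Figure D1:**
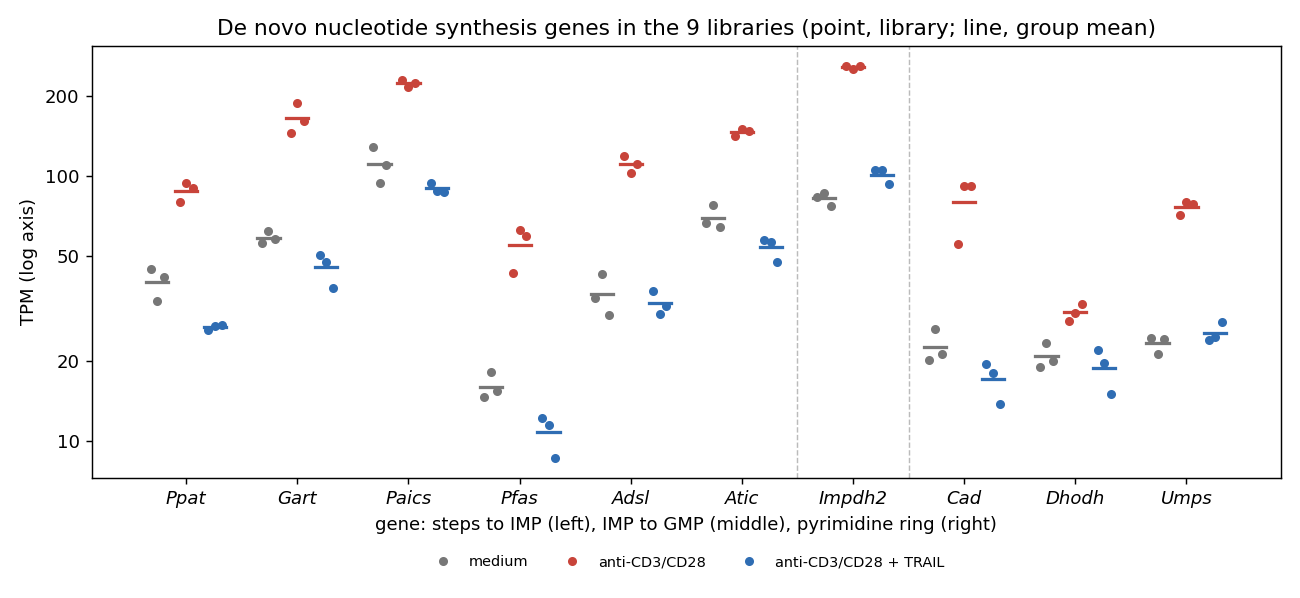
TPM of the 10 genes on a log axis, grouped from left to right into steps to IMP, the step from IMP toward GMP, and pyrimidine synthesis. Within the first group the genes are not in the order of the steps, as *Paics* is drawn before *Pfas*. Each point is 1 library, each line the mean of a group of 3 libraries, and colour marks the group; for every gene the 3 stimulated libraries lie above all libraries of the other groups, by the smallest margin for *Dhodh* (28.2 to 33.0 TPM against at most 23.5).

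Markers of other cell types were present beside those of T cells, and they moved with the groups. For 9 T cell markers the summed level was 4517 to 4600 TPM in medium libraries. It was 4005 to 4484 TPM after stimulation and 4480 to 4764 TPM with TRAIL. *Cd4* itself was at 355 to 435, 170 to 246 and 333 to 423 TPM. B cell markers summed to 5691 to 6293 TPM in medium, to 676 to 736 TPM after stimulation and to 2902 to 3353 TPM with TRAIL, and all 7 were called lower in stimulated than in medium and higher in TRAIL-treated than in stimulated cells. The same calls were made for 10 of 10 myeloid markers, whose sums were 1829.7 to 2124, 49.5 to 65.8 and 1334 to 1557 TPM, and for 6 of 6 erythroid markers, with sums of 2081 to 2534, 24.8 to 39.6 and 610.4 to 660.4 TPM. The 5 markers of CD8 T and NK cells summed to 189 to 219, 105 to 113 and 68.7 to 74.5 TPM, but did not move together. In stimulated against medium cells *Ncr1*, *Klrb1c* and *Klre1* were called lower (log2 fold changes -3.49, -2.65 and -2.44). *Cd8b1* (-0.42) and *Cd8a* (0.20) were not called there. In TRAIL-treated against stimulated cells *Ncr1* (1.37) and *Klrb1c* (1.08) were called higher and *Cd8a* (-1.62) lower. *Klre1* (0.84) and *Cd8b1* (-0.68) were not called there. Mitochondrially encoded genes took 9.33 to 10.8%, 5.65 to 5.98% and 9.06 to 11% of all TPM. The part of these differences in the results below was not tested. When the libraries were scaled to 5 genes of the TCR complex (*Cd3d*, *Cd3e*, *Trac*, *Trbc1* and *Trbc2*), an alternative added after seeing the data, 9 of the 10 genes were again called higher in stimulated than in medium cells and 9 lower in TRAIL-treated than in stimulated cells. Under this scaling 15.4% of all genes were called higher and 16.6% lower in the former comparison, and 14% higher and 17.9% lower in the latter. *Cd3g*, of a further subunit of the complex, is not among these 5 and was at 615 ± 61.1 TPM in medium, 298.5 ± 9.08 TPM after stimulation and 595 ± 13.6 TPM with TRAIL (SD, n = 3). With *Cd3g* added to the scaling, also after seeing the data, the counts of the 10 genes were again 9 and 9, where 18.6% of all genes were called higher and 14.7% lower in the former comparison, and 12.4% higher and 21.3% lower in the latter. In bulk RNA, fewer cells that express a gene and less RNA per cell cannot be told apart.

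**Figure D2:**
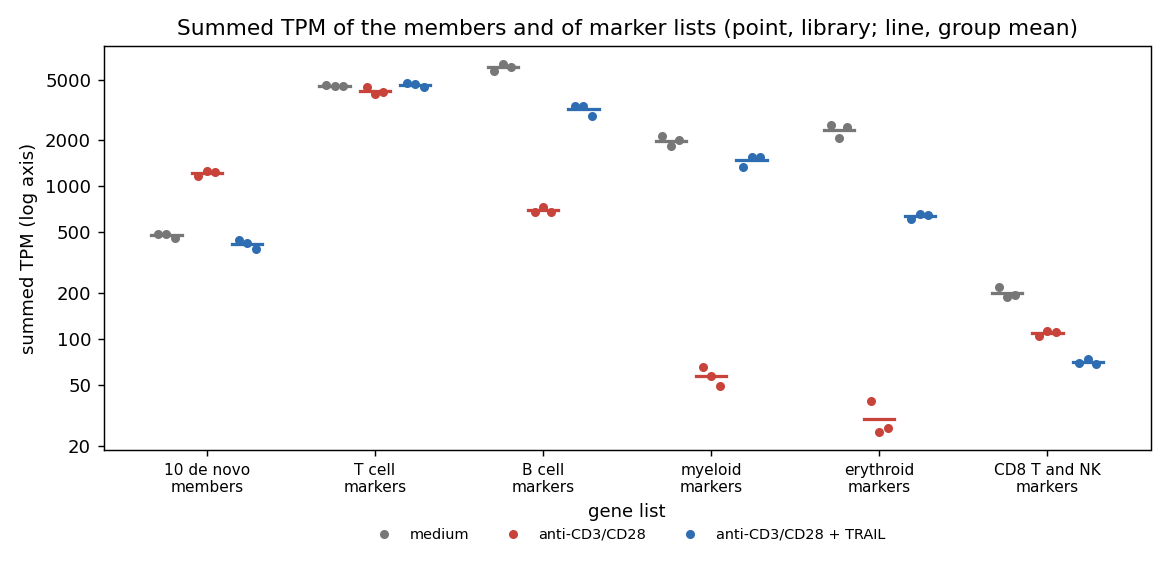
Summed TPM, on a log axis, of the 10 de novo genes and of 5 lists of cell type markers in each library (points) with the group means (lines). The de novo genes are high in stimulated libraries (1172 to 1268 TPM), whereas the B cell, myeloid and erythroid sums are lowest there, at 676 to 736, 49.5 to 65.8 and 24.8 to 39.6 TPM.

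The first committed step of purine synthesis is catalysed by the amidophosphoribosyltransferase encoded by *Ppat*. *Ppat* was at 44.3, 33.6 and 41.5 TPM in the medium libraries, at 79.3, 93.8 and 89.8 TPM in the stimulated libraries and at 26.3, 27.3 and 27.4 TPM in the TRAIL-treated libraries. The stimulated libraries were the highest, the TRAIL-treated libraries the lowest, and no 2 groups overlapped. The mean rose from 39.8 ± 5.57 TPM (SD, n = 3) to 87.6 ± 7.51 TPM, 2.20 times the medium level, with a log2 fold change of 1.13 (SE 0.117, limma adjusted p = 1.23e-05). With TRAIL it was 27.0 ± 0.584 TPM, 0.308 times the stimulated level (log2 fold change -1.66, SE 0.117, limma adjusted p = 6.95e-07).

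*Gart* encodes a protein with 3 enzyme activities of the path to IMP. It was at 55.6, 61.6 and 57.8 TPM in medium, at 145, 189 and 161 TPM after stimulation and at 50.4, 47.3 and 37.6 TPM with TRAIL. Again the stimulated libraries were above all others and the TRAIL-treated libraries below all others. The log2 fold change was 1.47 in stimulated against medium cells (SE 0.132, limma adjusted p = 4.00e-06) and -1.85 in TRAIL-treated against stimulated cells (SE 0.132, limma adjusted p = 7.80e-07). The ratios of mean TPM, taken without the pseudocount, were 2.82 and 0.274.

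*Pfas*, which encodes the phosphoribosylformylglycinamidine synthase, had the lowest mean of the pathway in medium (16.1 ± 1.87 TPM, n = 3). Its medium libraries were at 14.6, 18.2 and 15.4 TPM, its stimulated libraries at 43.1, 62.6 and 59.3 TPM and its TRAIL-treated libraries at 12.2, 11.5 and 8.63 TPM. No groups overlapped, and stimulated replicate 1 was lower than the other 2 of its group. In TRAIL-treated against stimulated cells the ratio of mean TPM of *Pfas* was 0.196. *Pfas* fell by 2.25 on the log2 scale there (SE 0.17, limma adjusted p = 1.19e-06), the largest fold change of the 10 genes in that comparison. Its rise in stimulated against medium cells was 1.70 (SE 0.17, limma adjusted p = 9.12e-06).

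*Paics* encodes the enzyme of the next carboxylation and condensation steps, and was the most abundant of the 10 genes in medium. It was at 129, 93.8 and 109.8 TPM in medium, at 229.7, 216 and 223 TPM after stimulation and at 94.2, 87.6 and 86.9 TPM with TRAIL. The stimulated libraries were apart from all others, whereas the medium and TRAIL-treated libraries overlapped. *Paics* rose by 1.01 on the log2 scale in stimulated against medium cells (SE 0.114, limma adjusted p = 2.15e-05), only just past the fold threshold. This call was lost without medium replicate 2 (0.90), without stimulated replicate 1 (0.99), with a pseudocount of 5 (0.99), under quantile normalization (0.89) and after adjustment for GC content and length (0.83). It fell by 1.31 in TRAIL-treated against stimulated cells (SE 0.114, limma adjusted p = 3.36e-06).

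*Adsl* encodes adenylosuccinate lyase, which acts before IMP and again on the way from IMP to AMP. The medium libraries were at 34.7, 42.8 and 29.8 TPM, the stimulated libraries at 119, 102.5 and 111 TPM and the TRAIL-treated libraries at 36.8, 30.2 and 32.4 TPM. Medium and TRAIL-treated libraries overlapped, and the stimulated libraries were well above both. *Adsl* was 3.10 times the medium level after stimulation (log2 fold change 1.62, SE 0.137, limma adjusted p = 2.55e-06) and 0.299 times the stimulated level with TRAIL (-1.71, SE 0.137, limma adjusted p = 1.74e-06).

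*Atic*, for the bifunctional enzyme that closes the ring to IMP, was at 66.1, 77.7 and 63.9 TPM in medium, at 141, 149.9 and 147 TPM after stimulation and at 57.3, 56.4 and 47.5 TPM with TRAIL. No groups overlapped, and the order was that of *Ppat*, *Gart* and *Pfas*. The log2 fold changes were 1.07 (SE 0.108, limma adjusted p = 9.72e-06) and -1.43 (SE 0.108, limma adjusted p = 1.15e-06). Under quantile normalization the first of them was 0.99 and no longer past the fold threshold.

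From IMP the path divides toward AMP and GMP. *Impdh2* encodes the inducible one of the 2 IMP dehydrogenases, which make the first step toward GMP. It was at 83.4, 86.1 and 76.9 TPM in medium, at 260.2, 253 and 259 TPM after stimulation and at 105, 105 and 92.7 TPM with TRAIL. Here the TRAIL-treated libraries lay between the other groups, above all medium libraries and below all stimulated ones. *Impdh2* rose 3.13 times in stimulated against medium cells (log2 fold change 1.64, SE 0.0876, limma adjusted p = 8.51e-08) and with TRAIL was 0.392 times the stimulated level (-1.35, SE 0.0876, limma adjusted p = 3.96e-07). These adjusted p-values were the lowest of the 10 genes, and its SD in stimulated libraries was 4.06 TPM on a mean of 257.4 TPM.

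The first 3 steps of pyrimidine synthesis are carried by 1 protein, encoded by *Cad*. *Cad* was at 20.1, 26.4 and 21.3 TPM in medium, at 55.2, 91.7 and 91.2 TPM after stimulation and at 19.5, 18.1 and 13.7 TPM with TRAIL. Stimulated replicate 1 was well below the other 2 of its group yet above every medium and TRAIL-treated library. *Cad* had the largest rise of the 10 genes in stimulated against medium cells, 1.74 on the log2 scale, and also the largest SE (0.208, limma adjusted p = 3.38e-05). In TRAIL-treated against stimulated cells it fell by 2.12 (SE 0.208, limma adjusted p = 7.94e-06), to 0.216 times the stimulated level.

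*Dhodh* encodes dihydroorotate dehydrogenase, the mitochondrial step of the path. It was at 19.0, 23.5 and 20.001 TPM in medium, at 28.2, 30.4 and 33.0 TPM after stimulation and at 21.99, 19.6 and 15.1 TPM with TRAIL. The stimulated libraries were above all others by a narrow margin, and the medium and TRAIL-treated libraries overlapped. The difference between stimulated and medium cells was 0.53 on the log2 scale (SE 0.145, limma adjusted p = 0.00775) and that between TRAIL-treated and stimulated cells was -0.68 (SE 0.145, limma adjusted p = 0.00193). Both passed the adjusted p but not the fold threshold, and after adjustment for GC content and length the first was 0.28 (limma adjusted p = 0.0725) and the second -0.37 (limma adjusted p = 0.0249).

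*Umps* encodes the bifunctional UMP synthase, which completes UMP. The medium libraries were at 24.5, 21.2 and 24.2 TPM, the stimulated libraries at 71.4, 79.8 and 78.3 TPM and the TRAIL-treated libraries at 24.1, 24.6 and 28.1 TPM. Medium and TRAIL-treated libraries overlapped and stimulated libraries were well above them. The log2 fold change was 1.67 in stimulated against medium cells (SE 0.103, limma adjusted p = 2.41e-07) and -1.54 in TRAIL-treated against stimulated cells (SE 0.103, limma adjusted p = 4.70e-07). The ratios of mean TPM, taken without the pseudocount, were 3.28 and 0.335.

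**Figure D3:**
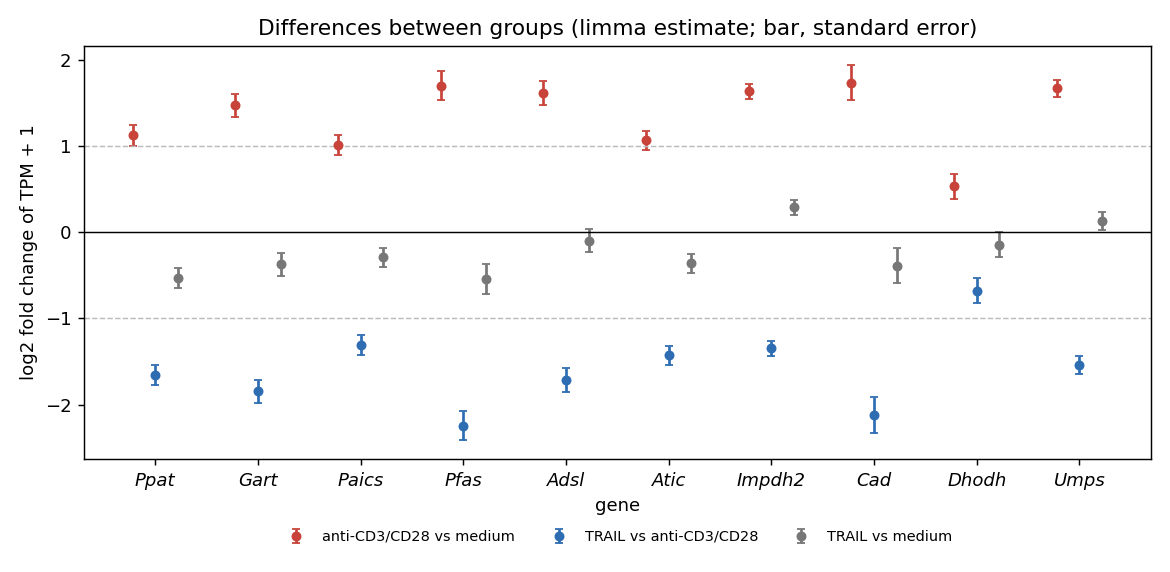
Fold change of log2(TPM + 1) for the 10 genes in the 3 comparisons, as estimated by limma (points) with its standard error (bars); dashed lines mark the threshold of 1 in either direction. The red and blue points of 9 genes are past the lines and those of *Dhodh* are not (0.53 and -0.68), and the grey points, TRAIL-treated against medium, lie between -0.54 and 0.29.

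Across the pathway, the order of the levels differed between groups. In medium the order by mean TPM was *Paics*, *Impdh2*, *Atic*, *Gart*, *Ppat*, *Adsl*, *Umps*, *Cad*, *Dhodh* and *Pfas*. Neighbours whose libraries overlapped in medium were *Impdh2* and *Atic*, *Ppat* and *Adsl*, *Umps* and *Cad*, and *Cad* and *Dhodh*. After stimulation *Impdh2* came first, followed by *Paics*, *Gart*, *Atic*, *Adsl*, *Ppat*, *Cad*, *Umps*, *Pfas* and *Dhodh*, with overlap between *Gart* and *Atic*, *Ppat* and *Cad*, and *Cad* and *Umps*. In TRAIL-treated cells the order was *Impdh2*, *Paics*, *Atic*, *Gart*, *Adsl*, *Ppat*, *Umps*, *Dhodh*, *Cad* and *Pfas*, with overlap between *Impdh2* and *Paics*, *Atic* and *Gart*, *Ppat* and *Umps*, and *Dhodh* and *Cad*. *Impdh2* was thus below *Paics* in every medium library and above it in every stimulated and every TRAIL-treated library, although with TRAIL the ranges of the 2 genes overlapped. The highest member mean was 6.90 times the lowest in medium, 8.43 times in stimulated and 9.36 times in TRAIL-treated cells.

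None of the 10 genes was called in TRAIL-treated against medium cells, but their levels were not equal for every gene. At an adjusted p below 0.05 without the fold threshold, *Ppat*, *Pfas* and *Atic* were lower in TRAIL-treated than in medium cells and *Impdh2* was higher (3 and 1 of the 10), against 24.6% of all genes lower and 8.03% higher by that rule. The log2 differences were -0.53 for *Ppat* (SE 0.117, limma adjusted p = 0.00726), -0.54 for *Pfas* (SE 0.17, 0.0347), -0.36 for *Atic* (SE 0.108, 0.0287) and 0.29 for *Impdh2* (SE 0.0876, 0.029). *Cad* (-0.39, limma adjusted p = 0.18) and *Gart* (-0.37, 0.0539) did not pass although their TRAIL-treated libraries were all below their medium libraries, as was the case for 38.2% of all genes tested. *Paics* (-0.29), *Dhodh* (-0.14), *Adsl* (-0.10) and *Umps* (0.13) had overlapping libraries and adjusted p-values of 0.0743 to 0.616. The all-gene median of this comparison was itself -0.18, and it moved up by 0.17 under median-of-ratios scaling and by 0.14 under quantile normalization. Under these scalings *Adsl* and *Dhodh* changed sign, to between 0.036 and 0.088, and *Atic* and *Pfas* no longer passed. *Ppat* kept an adjusted p below 0.05 in 20 of 21 alternatives and missed it under median-of-ratios scaling (0.0544). *Atic* and *Impdh2* each kept it in 13 of 21 and *Pfas* in 11 of 21. Single libraries decided several of these. *Pfas* missed the threshold without any one of the medium libraries and without TRAIL-treated replicate 2 or 3 (limma adjusted p = 0.0533 to 0.129), *Atic* without medium replicate 1 or 2 or TRAIL-treated replicate 2 or 3 (0.0503 to 0.099), and *Impdh2* without medium replicate 1 or 3, stimulated replicate 3 or TRAIL-treated replicate 1 or 2 (0.0504 to 0.115). *Gart* passed it without stimulated replicate 1 or 2 or TRAIL-treated replicate 1 (0.0308 to 0.0469), and *Paics* without medium replicate 2 (0.0165).

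The rest of the route to nucleotides was described with a list of 16 genes for PRPP supply and for the steps after IMP and UMP. In stimulated against medium cells 6 of them were called higher and 1 lower, and in TRAIL-treated against stimulated cells 1 was called higher and 7 lower. Over all genes tested 12.4% were called higher and 19.5% lower in the first of these comparisons, and 16.6% higher and 14.3% lower in the second. None of the 16 was called in TRAIL-treated against medium cells, where 4 had an unadjusted p below 0.05 (25%, against 44% of all genes) and *Prpsap2* (-0.47, limma adjusted p = 0.00691) was lower by the adjusted p alone. The median log2 fold changes of the list were 0.76, -0.70 and -0.096.

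PRPP itself is made by PRPP synthetases. *Prps1* rose from 44.1 ± 4.52 TPM in medium to 111 ± 5.02 TPM in stimulated cells and was at 48.0 ± 1.12 TPM with TRAIL (log2 fold changes 1.32 and -1.19, limma adjusted p = 7.68e-07 and 1.74e-06). *Prps2* went the other way by a smaller amount, at 53.9, 43.2 and 45.9 TPM (log2 fold change of stimulated against medium -0.31, limma adjusted p = 0.0106, not past the fold threshold). *Prps1l3*, a *Prps1*-like gene whose reads may be hard to tell from those of *Prps1*, was at 83.8, 102 and 76.6 TPM and was called in neither comparison (0.28 and -0.41). Of the genes of PRPP synthetase-associated proteins, *Prpsap1* was at 59.7, 61.0 and 50.2 TPM with overlapping libraries, and *Prpsap2* at 53.7, 33.2 and 38.4 TPM (-0.67 in stimulated against medium cells, limma adjusted p = 0.000188).

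On the way from IMP to AMP, the 2 genes of adenylosuccinate synthase moved in opposite directions. *Adssl1*, the isozyme known from muscle, was at 9.80, 9.01 and 13.0 TPM in medium, at 1.89, 1.94 and 2.21 TPM after stimulation and at 8.85, 9.41 and 8.89 TPM with TRAIL (log2 fold changes -1.93 and 1.74, limma adjusted p = 7.38e-07 and 1.73e-06). *Adss* was at 103, 197 and 115 TPM (0.93 and -0.77, limma adjusted p = 4.89e-06 and 2.05e-05), in neither case past the fold threshold. On the way to GMP, *Impdh1*, the other IMP dehydrogenase, was at 59.9, 89.6 and 57.3 TPM (0.58 and -0.64, limma adjusted p = 0.00271 and 0.00153). *Gmps*, GMP synthase, was at 19.9, 38.9 and 17.6 TPM, with log2 differences of 0.94, not called, and -1.11, called (limma adjusted p = 3.40e-05 and 1.07e-05). In stimulated against medium cells, *Adss* was past the fold threshold in 4 of 21 alternatives and *Gmps* in 6 of 21, among them the one without medium replicate 1 (1.02). In TRAIL-treated against stimulated cells *Adss* was past it when scaled to 6 TCR complex genes (-1.08), and the call of *Gmps* was lost with a pseudocount of 5 (-0.96).

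For CTP, made from UTP by CTP synthases, the genes of the isozymes differed as well. *Ctps* was at 21.9, 21.0 and 21.1 TPM in medium, at 77.8, 83.6 and 81.8 TPM after stimulation and at 21.5, 20.02 and 19.5 TPM with TRAIL, log2 fold changes of 1.88 and -1.94 (limma adjusted p = 2.82e-08 and 2.68e-08). *Ctps2* was at 58.4 ± 5.60, 30.5 ± 2.17 and 60.9 ± 0.796 TPM in the same order of groups, -0.92 and 0.98 on the log2 scale (limma adjusted p = 1.70e-05 and 1.07e-05), in both cases short of the fold threshold. The second difference of *Ctps2* passed it in 4 of 21 alternatives, among them the one without stimulated replicate 1 (1.01). Among the nucleotide kinases, *Guk1*, *Nme1* and *Nme2*, the genes of guanylate kinase and of 2 closely related nucleoside diphosphate kinases, were called in both comparisons, at 31.7, 69.1 and 31.1 TPM, 23.4, 75.0 and 23.7 TPM, and 186, 431 and 203 TPM. The calls of *Guk1* (0.60) and *Nme2* (0.80) in stimulated against medium cells were lost after adjustment for GC content and length, and that of *Guk1* also without medium replicate 2 or stimulated replicate 1 (0.99 without the latter). The same adjustment took both in TRAIL-treated against stimulated cells (-0.90 and -0.70), and the call of *Nme2* was also lost without stimulated replicate 1 (-0.98) and under median-of-ratios scaling (-0.98) and quantile normalization (-0.90). *Cmpk1*, the UMP and CMP kinase, was at 60.0, 54.0 and 46.5 TPM and did not pass in either comparison.

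As TPM is scaled per length, genes that share a reaction can be set in ratio within each library. The ratio of *Impdh2* to *Impdh1* was 1.52, 1.21 and 1.42 in medium, 3.29, 2.61 and 2.79 after stimulation and 1.67, 1.85 and 1.77 with TRAIL. That of *Ctps* to *Ctps2* was below 1 in medium (0.367 ± 0.0305, n = 3) and with TRAIL (0.334 ± 0.0160) and above 1 after stimulation (2.68 ± 0.286). The ratio of *Prps1* to *Prps2* was 0.819 ± 0.0972, 2.58 ± 0.131 and 1.05 ± 0.115, and that of *Adss* to *Adssl1* was 9.94 ± 1.81, 98.2 ± 4.95 and 12.7 ± 0.529, in the order medium, stimulated and TRAIL-treated. For *Paics* and *Ppat*, the neighbours on chromosome 5, the ratio was 2.78 ± 0.129, 2.56 ± 0.304 and 3.32 ± 0.223, and it ranged from 2.31 to 3.58 over the 9 libraries. These ratios were not tested.

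**Figure D4:**
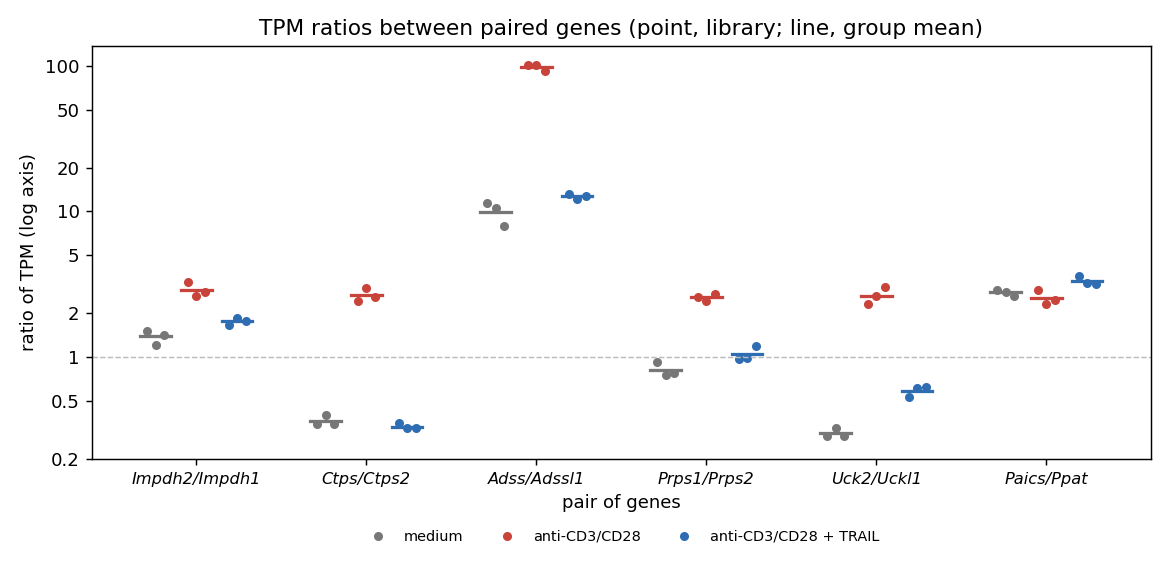
Ratio of TPM between paired genes, on a log axis, in each library (points) with the group means (lines). The dashed line marks equal levels. The ratio of *Ctps* to *Ctps2* is above it only in stimulated cells (2.68 on average, against 0.367 in medium and 0.334 with TRAIL). So is the ratio of the salvage genes *Uck2* and *Uckl1* (2.65, against 0.301 and 0.589).

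The purine ring takes carbon from formyl groups of the folate pool, which are fed by serine. Of 8 genes of this one-carbon supply, 6 were called higher in stimulated than in medium cells and the same number was called lower in TRAIL-treated than in stimulated cells, against 12.4% and 14.3% of all genes. The list medians were 2.08 and -2.18, against -0.15 and 0.011 over all genes. *Mthfd2*, of the mitochondrial folate dehydrogenase and cyclohydrolase, was at 32.03, 31.1 and 32.04 TPM in medium, at 303, 306 and 314 TPM after stimulation and at 37.8, 38.4 and 36.4 TPM with TRAIL (log2 fold changes 3.24 and -3.00, limma adjusted p = 4.70e-10 and 9.06e-10). *Shmt2* and *Shmt1*, of the mitochondrial and cytosolic serine hydroxymethyltransferases, were at 85.3, 769 and 57.5 TPM and at 8.42, 67.5 and 7.13 TPM (3.17 and -3.73, and 2.86 and -3.07, limma adjusted p at most 4.17e-08). None of the 8 was called in TRAIL-treated against medium cells, where 3 had an unadjusted p below 0.05 (37.5%, against 44% of all genes). The other 2, *Mthfd2l* and *Mthfs*, were at 3.42, 2.27 and 2.66 TPM and at 17.3, 13.1 and 15.3 TPM, with log2 differences of -0.43 and -0.38 between stimulated and medium cells (limma adjusted p = 0.0118 and 0.0393). In TRAIL-treated against medium cells, by the adjusted p alone, *Mthfd2* was 0.24 higher (limma adjusted p = 0.0394) and *Shmt2* 0.56 lower (0.0199).

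Salvage, which recycles bases and nucleosides, showed no common direction. Of its 12 genes, 3 were called higher and 3 lower in stimulated against medium cells, and 1 higher and 5 lower in TRAIL-treated against stimulated cells. The shares over all genes were 12.4% higher and 19.5% lower, and 16.6% higher and 14.3% lower. The medians of the 12 were 0.21 and -0.48. *Uck2*, a uridine-cytidine kinase, was at 30.2 ± 2.52, 108 ± 16.9 and 31.9 ± 2.26 TPM (1.797 and -1.72, limma adjusted p = 7.10e-07 and 1.05e-06). *Upp1*, of uridine phosphorylase, was at 0.208 to 0.922 TPM in medium, 9.04 to 12.01 TPM after stimulation and 0.188 to 0.662 TPM with TRAIL (2.82 and -3.01, limma adjusted p = 7.27e-07 and 4.88e-07). *Tk2*, the mitochondrial thymidine kinase, was low in stimulated cells, at 80.7, 30.01 and 78.0 TPM (-1.40 and 1.35, limma adjusted p = 1.14e-06 and 1.59e-06). None of the 12 was called in TRAIL-treated against medium cells, where 4 had an unadjusted p below 0.05 (33.3%, against 44% of all genes).

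Of 17 genes of nucleotide breakdown, 15 passed the filter (not *Dpyd* and *Dpys*). None of these was called higher and 5 were called lower in stimulated than in medium cells, while 5 were called higher and 2 lower in TRAIL-treated than in stimulated cells (medians -0.26 and 0.17). Of all genes, 12.4% were called higher and 19.5% lower in the first comparison, and 16.6% higher and 14.3% lower in the second. *Ampd1*, an AMP deaminase, was at 10.8, 9.39 and 11.9 TPM in medium, at 0.132, 0.0641 and 0.117 TPM after stimulation and at 9.95, 9.10 and 8.47 TPM with TRAIL (log2 fold changes -3.40 and 3.20, limma adjusted p = 5.48e-09 and 9.82e-09). *Ampd3*, a further AMP deaminase known from erythrocytes, was at 19.6, 2.99 and 12.1 TPM (-2.37 and 1.73, limma adjusted p = 6.83e-07 and 7.89e-06). The erythroid markers moved in the same directions, as did the B cell and myeloid markers, and which cells its reads came from was not tested. *Nt5e*, of the surface 5′-nucleotidase CD73, was at 25.2, 4.73 and 22.9 TPM (-2.20 and 2.07, limma adjusted p = 2.00e-07 and 3.44e-07). None of the 15 was called in TRAIL-treated against medium cells, where 5 had an unadjusted p below 0.05 (33.3%, against 44% of all genes).

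**Figure D5:**
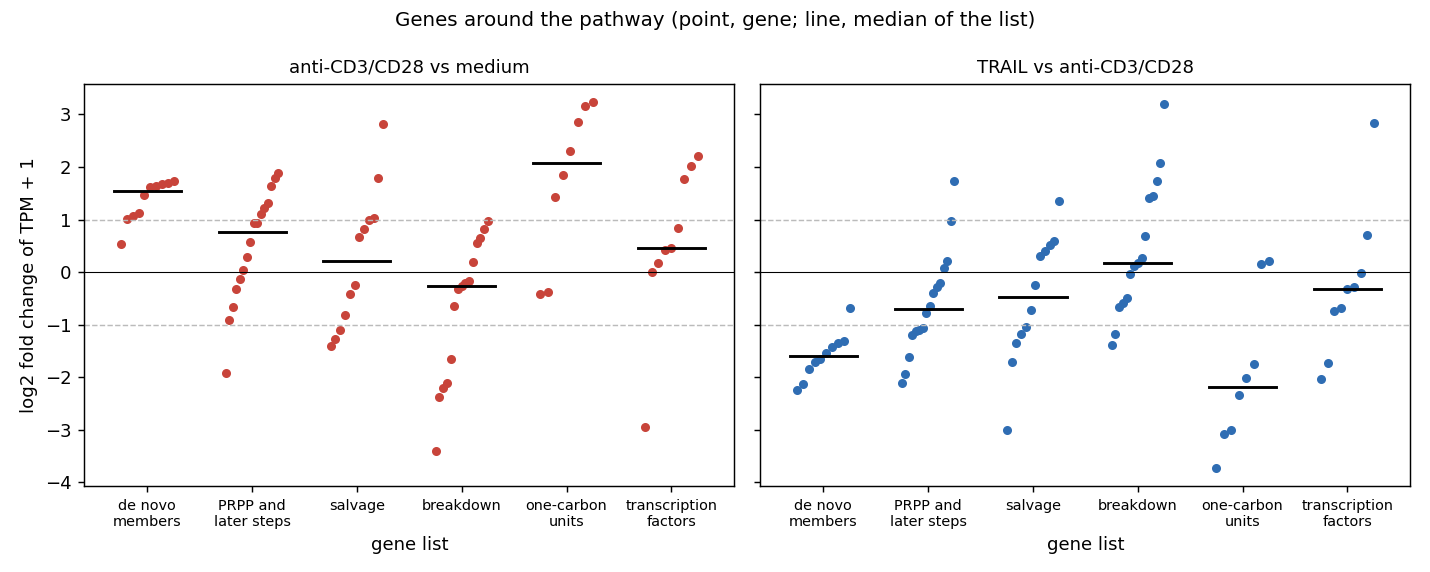
Fold change of log2(TPM + 1) of every tested gene in the de novo list and in 5 lists around it, for stimulated against medium cells (left) and TRAIL-treated against stimulated cells (right); points are genes and thick lines list medians. The de novo and one-carbon medians (1.55 and 2.08, left, and -1.60 and -2.18, right) are the farthest from 0. The de novo genes lie on 1 side of 0 in each panel, and each of the other 5 lists has genes on both sides.

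Of 9 transcription factors known to bind promoters of such genes, 3 were called higher and 1 lower in stimulated against medium cells, and 1 higher and 2 lower in TRAIL-treated against stimulated cells, where the shares of all genes were 12.4% and 19.5%, and 16.6% and 14.3%. *Myc* was at 124, 149 and 152 TPM in medium, at 596, 715 and 650.3 TPM after stimulation and at 223, 185 and 181 TPM with TRAIL. Its log2 fold changes were 2.20 and -1.73 (limma adjusted p = 1.01e-07 and 6.30e-07), and its TRAIL-treated libraries were all above its medium libraries (0.47, limma adjusted p = 0.0151). *E2f1* was at 7.23, 32.2 and 7.10 TPM (2.02 and -2.03, limma adjusted p = 1.31e-07 and 1.41e-07). *Mxd4*, which competes with Myc for its partner Max, was at 83.4, 9.95 and 76.5 TPM (-2.95 and 2.83, limma adjusted p = 1.03e-08 and 1.65e-08). The only one of the 9 called in TRAIL-treated against medium cells was *Mxd1*, of another protein that pairs with Max, which is named after its values were seen. *Mxd1* was at 26.7 ± 3.80 TPM in medium, at 93.5 ± 13.1 TPM after stimulation and at 91.5 ± 5.32 TPM with TRAIL. Against medium its log2 fold change was 1.77 in stimulated cells and 1.75 in TRAIL-treated cells (limma adjusted p = 9.06e-07 and 1.36e-05), and TRAIL-treated and stimulated cells differed by -0.023, a sign that turned under 2 of the scalings (limma adjusted p = 0.886).

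The 10 genes followed one another across the libraries. The Pearson correlation of log2(TPM + 1) of each gene with the mean of the other 9 genes was 0.993 for *Gart*, the highest, 0.940 for *Impdh2* and 0.915 for *Dhodh*, the lowest. These values describe 9 libraries that fall into 3 groups, with the stimulated group apart, and carry no p. Among the genes outside the lists, the 5 with the highest correlation with the mean of the 10 genes over the 9 libraries were *Nop2*, *Nsun2*, *Mybl2*, *Xpot* and *Mars1*, all at 0.999. In the order medium, stimulated, TRAIL-treated, *Nop2* was at 46.2, 147 and 37.7 TPM, *Nsun2* at 110.3, 310.3 and 96.8 TPM, *Mybl2* at 5.32, 26.4 and 4.02 TPM, *Xpot* at 23.5, 114 and 18.4 TPM and *Mars1* at 30.3, 137 and 22.5 TPM.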

How the data were processed

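The authors used TRIzol for RNA and a SureSelect XT HS2 kit for mRNA libraries, and sequenced paired-end reads on an Illumina NovaSeq. Reads were trimmed with Trimmomatic 0.36 and aligned with HISAT2 2.1.0, to GRCm38 by the study's methods. The submitters' processing notes list SAMtools 1.2 and StringTie 2.1.2 without a role, DESeq2, with which the study's methods normalized counts per feature, and a human build, whereas the loci in the table match GRCm38. The authors deposited TPM values, and the program that made them is not given in the sources used here. Depth is unknown.

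All other values were computed from the TPM of the 9 libraries, grouped by their labels. The 15536 genes that reached 1 TPM in 3 or more libraries were fitted in R 4.3.3 with limma 3.58.1 (lmFit, eBayes with a trend) on log2(TPM + 1) without a replicate block, and p-values were adjusted by Benjamini-Hochberg over all of them. The pseudocount of 1 understates the change of genes with low TPM. A call needed an adjusted p under 0.05 as well as a log2 fold change of 1 or more in size. The fit was tested on simulated data with known changes. Python 3.11.15 was used with pandas 2.3.3 for tables and matplotlib 3.10.9 for figures. Promoter windows came from RefSeq (GRCm38.p6).

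The text names every gene of the de novo list and of the list of PRPP supply and later steps, except that 1 gene is not reported here. From each other pathway list it names the 3 genes with the largest absolute log2 fold change in TRAIL-treated against stimulated cells among those with a group mean of at least 10 TPM, and *Myc*. It also names the 5 genes outside the lists most correlated with the mean of the de novo genes. *Mxd1*, *Mthfd2l* and *Mthfs* were added after their values were seen, and *Uckl1* is named only for its ratio with *Uck2*. The de novo genes and all lists were chosen with earlier results of these data known, so the counts over a list stand beside those over all genes and no list was tested as a set. Alternatives varied the pseudocount, filter, scaling, variance trend, libraries in the fit, replicate block and fold threshold, and left out each library in turn. Scaling to 5 or 6 TCR complex genes and an adjustment for GC content and length, which were on hand for 99.8% of the genes, were added after seeing the data. Reads of paralogs or overlapping genes may be divided arbitrarily.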

Additional observations from a re-analysis of the deposited data

How the results depend on the processing

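The number of the 10 genes called higher in stimulated than in medium cells was 9 in most alternatives, 8 with a pseudocount of 5, after adjustment for GC content and length, without medium replicate 2 and without stimulated replicate 1, and 7 under quantile normalization. The number called lower in TRAIL-treated than in stimulated cells was 9 in every alternative that kept the fold threshold, and 10 without it. In TRAIL-treated against medium cells no gene of the 10 was called except without the fold threshold, where 4 were. Their median log2 fold change in stimulated against medium cells was 1.46 with a pseudocount of 5, 1.64 under median-of-ratios scaling, 1.49 under quantile normalization, 1.72 and 1.86 when scaled to 5 TCR complex genes or to the same with *Cd3g*, 1.35 after adjustment for GC content and length, and 1.48 to 1.56 when single libraries were left out. In TRAIL-treated against stimulated cells it was -1.47 with a pseudocount of 5, -1.51 and -1.48 under median-of-ratios scaling and quantile normalization, -1.76 and -1.90 when scaled to 5 or 6 TCR complex genes and -1.64 to -1.56 with single libraries left out. In TRAIL-treated against medium cells it was -0.14 and -0.19 under median-of-ratios scaling and quantile normalization, and -0.37 to -0.25 with single libraries left out. Over all genes, the calls in stimulated against medium cells numbered 4959, 2946 with a pseudocount of 5, 10678 without the fold threshold and 4749 to 5202 with single libraries left out. Those in TRAIL-treated against stimulated cells numbered 4800, and 2883, 10420 and 4649 to 4950 in the same order. Those in TRAIL-treated against medium cells numbered 718, and 1167 with a pseudocount of 0.1, 332 with one of 5, 5063 without the fold threshold and 650 to 815 with single libraries left out. The cause of these shifts was not tested, apart from the threshold itself.

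The other scalings moved the all-gene median log2 fold change of stimulated against medium cells by 0.082 (median-of-ratios), 0.19 (quantile) and by 0.15 and 0.28 (5 and 6 TCR complex genes), and that of TRAIL-treated against stimulated cells by 0.083, -0.061, -0.15 and -0.26. Small differences that were not called changed sign. In TRAIL-treated against medium cells these were, under median-of-ratios scaling, *Adsl* 0.088, *Ctps* 0.11, *Dhodh* 0.036, *E2f1* 0.15, *Gmps* 0.015, *Guk1* 0.16, *Impdh1* 0.13, *Mthfs* 0.0087, *Mxd4* 0.066, *Nsun2* 0.00017, *Nt5e* 0.053, *Prps1l3* 0.063 and *Tk2* 0.14, and under quantile normalization *Adsl* 0.067, *Adssl1* 0.017, *Ampd1* 0.0074, *Ctps* 0.13, *Dhodh* 0.051, *E2f1* 0.18, *Gmps* 0.032, *Guk1* 0.15, *Impdh1* 0.095, *Mthfs* 0.025, *Mxd4* 0.0098, *Nt5e* 0.047, *Prps1l3* 0.0014 and *Tk2* 0.081. After adjustment for GC content and length they were *E2f1* 0.057 and *Tk2* 0.0034 in that comparison, *Prpsap1* -0.34 in stimulated against medium cells, and *Prpsap1* 0.12 and *Prps2* -0.078 in TRAIL-treated against stimulated cells. Scaled to 5 TCR complex genes, *Cmpk1* was at 0.034 in stimulated against medium cells and *Prps2* at -0.077 in TRAIL-treated against stimulated cells. Scaled to 6, *Cmpk1* was at 0.18 in the former, and *Prps2* at -0.21, *Prpsap2* at -0.094, *Mthfs* at -0.078 and *Mthfd2l* at -0.058 in the latter. In TRAIL-treated against stimulated cells *Mxd1* was at 0.073 and 0.15 under median-of-ratios scaling and quantile normalization and *Mthfd2l* at -0.10 under quantile normalization. Leaving out single libraries gave ranges across 0 in TRAIL-treated against medium cells, from -0.22 to 0.037 for *Adsl*, -0.016 to 0.12 for *Ctps2*, -0.26 to 0.0016 for *Dhodh*, -0.075 to 0.086 for *E2f1*, -0.12 to 0.050 for *Guk1*, -0.12 to 0.069 for *Impdh1*, -0.10 to 0.14 for *Nme1*, -0.015 to 0.25 for *Nme2* and -0.10 to 0.028 for *Tk2*. Those of *Prpsap1* in stimulated against medium cells (-0.046 to 0.12) and of *Mxd1* in TRAIL-treated against stimulated cells (-0.13 to 0.071) also crossed 0.

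Libraries with the same replicate number shared only a number: their deviations from the group means correlated at -0.31 to 0.29 over all genes, and not every library correlated best with its own number. With the number as a replicate block, the calls of the 10 genes stayed at 9, 9 and 0 and the block changed no other call of a named gene. The depth of the libraries, which TPM does not keep, limits what can be said of genes near the filter, none of which is among the 10.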

Other observations

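Within the stimulated group, replicate 1 was lower than its group mean on the log2(TPM + 1) scale for *Cad* (-0.48), *Pfas* (-0.33) and *Gart* (-0.18), and close to it for *Impdh2* (0.016) and *Paics* (0.043). By the mean length of all annotated transcripts of a gene, *Ppat* and *Umps* were the longest of the 10 (3399 and 3384 bases). They were at -0.14 and -0.096 there, and *Gart*, at 1408 bases by that measure, was farther below the group mean than both. The bases of annotated exon give another order. By these *Cad* (8183), *Atic* (7985) and *Pfas* (7933) were the longest, and *Gart* (5144) was longer than *Ppat* (4421) and *Umps* (3484). *Atic* was at -0.050 there. In the same library, among genes with a mean level above 5 TPM, the longest 25% had a median deviation of -0.27 from the group mean and the shortest 25% one of 0.10. In medium replicate 2 and TRAIL-treated replicate 3, the 25% of these genes with the highest GC content had median deviations of 0.14 and -0.15, respectively. The 4 of the 10 genes with the highest GC content are *Cad*, *Dhodh*, *Pfas* and *Adsl*, in that order. In the same pair of libraries *Cad* was at 0.22 and -0.28, *Dhodh* at 0.17 and -0.29 and *Pfas* at 0.17 and -0.28, whereas *Adsl* was at 0.27 and -0.026. *Atic*, the lowest in GC content but for *Ppat* (46.3% and 44.5%), was at 0.17 and -0.17. *Gart* was at 0.079 and -0.25 and *Impdh2* at 0.069 and -0.12. *Ppat* was at -0.23 and 0.021, *Paics* at -0.23 and -0.042 and *Umps* at -0.13 and 0.13. The part of GC content in these deviations was not tested.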
